A study of Caenorhabditis elegans with 6 samples.

Results

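The flp genes of Caenorhabditis elegans encode FMRFamide-like neuropeptides, and 31 of the 20473 genes in the deposited table carry a symbol made of flp and a number. Their transcripts were measured by sequencing of oligo(dT)-selected RNA from whole worms of the wild-type strain N2, with 3 libraries from worms without diquat (controls, 0 µg/L) and 3 from worms kept at 100 µg/L, after 72 h at 20 °C. Diquat, given as dibromide monohydrate, is a bipyridyl herbicide that cycles between redox states and passes electrons to oxygen. Both groups share strain, tissue, time and temperature. The sources used here do not give the stage or age of the worms, nor whether the replicates were separate cultures, and p-values here reflect the spread between these libraries alone, which may be technical.

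FMRFamide-like peptides are made as longer precursors that are cut at basic residues by proprotein convertases, trimmed by a carboxypeptidase and amidated at the carboxyl end. They are packed into dense-core vesicles, released from neurons and some other cells, and act mostly through G protein-coupled receptors of the npr, frpr and dmsr families. In the worm they are known for roles in locomotion, egg laying, feeding, sleep, fat metabolism, mating and responses to stress. FLP-1 released from AIY interneurons and FLP-2 released from the intestine are known to promote the antioxidant response to hydrogen peroxide, and ALA-derived FLP-13 drives the sleep that follows cellular stress.

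Total counts were 23390547 to 24593469 per library. Levels below are CPM, counts scaled to library size with TMM factors, and levels compared between genes are FPKM, which the authors normalized for transcript length. As a check of the neuronal signal, all 15 pan-neuronal genes chosen (such as unc-119, snb-1 and rab-3) passed the count filter, and their summed level was 539.6, 544 and 534 CPM in controls 1 to 3 and 516, 538 and 516 CPM in diquat 1 to 3. Of the 15, 0 were called in either direction, and their median log2 fold change was 0.06, with 4 below 0. The sign of that median was not stable: it was -0.06 with 11 of 15 below 0 without diquat 3, and -0.04 with 8 of 15 below 0 with the length trend described later removed. Sperm-expressed genes were lower with diquat, with 6 of 7 tested marker entries called, against 0.913% of all tested genes called lower. gsp-4 appeared as separate entries with log2 fold changes of -1.16 and 0.712, and the latter was not called. Among the intestine markers below, asp-1 likewise appeared as separate entries, at 0.301 and -0.295. The chosen markers of other tissues had 0 called, with median log2 fold changes of -0.24 for body wall muscle, -0.01 for intestine, 0.14 for epidermis, -0.07 for glia and -0.01 for oocytes and germline. With the replicate number as a block, however, 5 of 8 muscle and 2 of 8 intestine marker entries fell, against 4.0% of all tested genes. With the length trend also removed 6 of 8 and 3 of 8 fell, against 6.17% of all tested genes. The part of these tissues in the flp values was not tested. In RNA from whole worms, fewer neurons and less RNA per neuron cannot be told apart.

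The flp genes were spread unevenly over the genome (WBcel235, Ensembl release 115). Chromosome X held 13 of the 31 (41.9%), against 13.7% of the 20105 genes of the table that have a position, while chromosome V held 3 of 31 (9.68%) against 24.8%. A group of 3 lay together on the X within 7932 base pairs, all on the reverse strand: flp-28 (10087314 to 10087966), flp-3 (10091946 to 10092964) and flp-2 (10094430 to 10095245). The gaps between them were 3979 and 1465 base pairs. All 3 lie inside the forward-strand gene W07E11.1, annotated with glutamate synthase activity, and share 0 exon bases with it. W07E11.1 was at 242, 246 and 225 CPM in controls 1 to 3 and 239, 243 and 189.9 CPM in diquat 1 to 3 (log2 fold change -0.09 with 95% interval -0.35 to 0.17, edgeR's adjusted p of 0.896). Exon lengths of the flp genes ran from 422 to 1013 nucleotides, and 20 of 31 had 1 annotated transcript. Of the 31, 22 carried the annotation neuropeptide signaling pathway in the deposited table, among 132 genes with it. Exons of flp-8, flp-11, flp-16, flp-17, flp-19 and flp-33 overlapped those of another gene by 5 to 21 bases, at most 2.94% of a member's exon length, and strand use in the counting was not stated.

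Transcripts of 30 of the 31 genes were detected in every library and passed the count filter. flp-23 had 1 count in diquat 3 and 0 in the other libraries, where a floor of 3 counts stands for 0.122 to 0.128 CPM before TMM scaling. It was not tested. The other 30 together took 0.0406% to 0.0493% of a library's counts. On the FPKM scale flp-28 was highest, at 76.1 ± 6.82 FPKM in control and 66.5 ± 1.45 FPKM with diquat (mean ± SD, n = 3 in each group). flp-1 followed at 56.1 ± 6.70 FPKM in control and 48.9 ± 2.13 FPKM with diquat. In both groups every library of flp-28 lay above every library of flp-1. Next came flp-22 (50.1 ± 3.97 FPKM in control and 48.2 ± 5.59 FPKM with diquat), flp-11 (49.4 ± 2.24 FPKM in control and 43 ± 4.65 FPKM with diquat) and flp-24 (43.9 ± 3.24 FPKM in control and 42.5 ± 3.54 FPKM with diquat), whose ranges overlapped between neighbours in this order, as did those of flp-1 and flp-22 in control. These 5 genes made up 35.6% of the summed flp FPKM. At the lower end stood flp-25 (5.93 ± 0.559 FPKM in control and 4.87 ± 0.721 FPKM with diquat) and flp-8 (6.66 ± 1.08 FPKM in control and 6.78 ± 0.580 FPKM with diquat), whose FPKM overlapped in control and not with diquat.

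**Figure D1:**
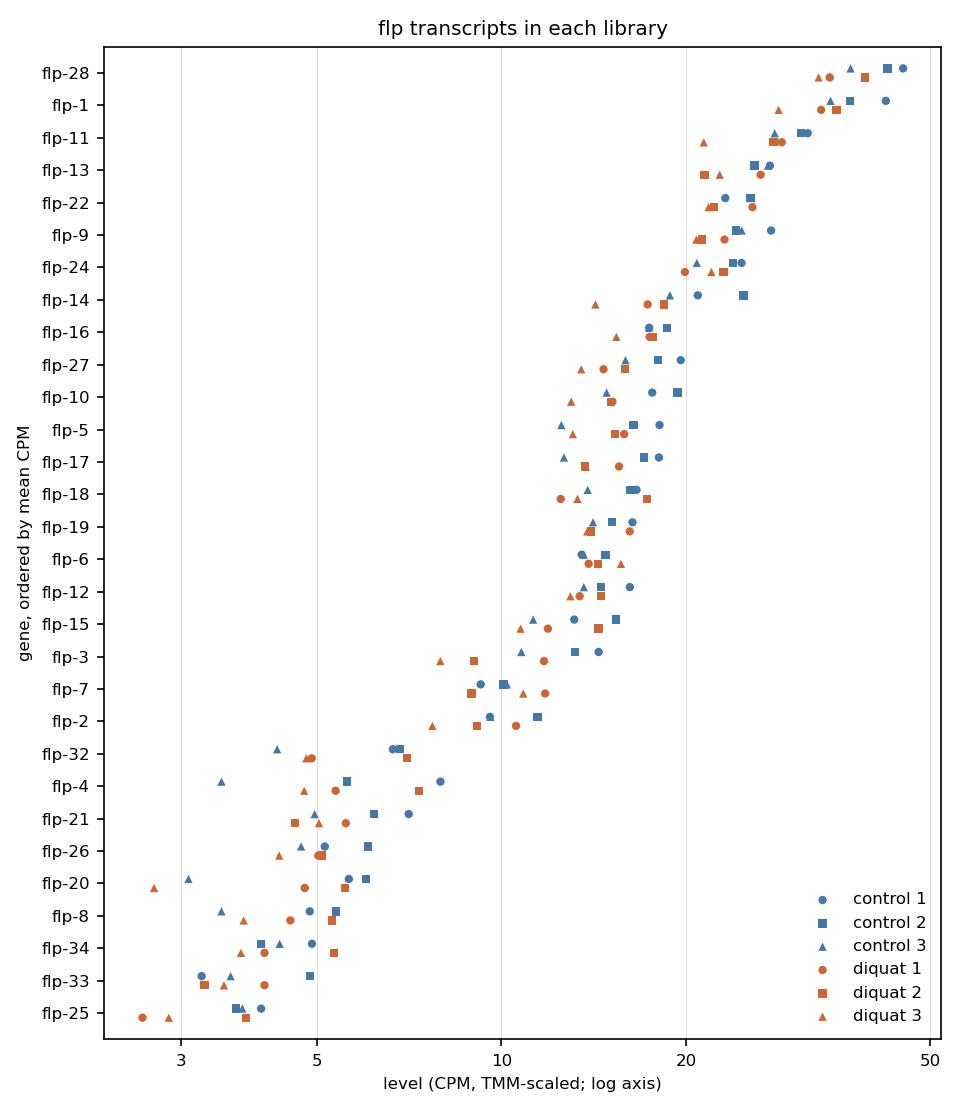
Level of each of the 30 tested flp genes in each library (horizontal log axis, CPM after TMM scaling; genes ordered by mean level). Blue points are control libraries and orange points diquat libraries, with circles, squares and triangles for libraries 1, 2 and 3. Levels span from 2.60 CPM (flp-25, diquat 1) to 45.2 CPM (flp-28, control 1), and the groups overlap for all genes but flp-9, flp-14 and flp-27.

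The comparison asks whether flp transcripts differed between worms at 100 and 0 µg/L diquat. No flp gene passed the test, and the differences were small and mostly negative. Of 30 tested genes, 0 were called lower and 0 higher with edgeR's quasi-likelihood test at an adjusted p under 0.05, where 0.913% of all 13252 tested genes were called lower and 0.0% higher. DESeq2, limma-voom and the authors' deposited table also called 0 of them in either direction. At an unadjusted p under 0.05, edgeR had 2 lower (flp-3 and flp-14) and 0 higher, against 4.68% and 1.54% of all tested genes. The log2 fold changes of the 30 ran from -0.42 (flp-3) to 0.10 (flp-7), with adjusted p-values of 0.723 to 0.992. The median log2 fold change of the 30 was -0.13, beside 0.01 over all tested genes. The log2 fold change was below 0 for 27 of the 30, where 47.3% of all tested genes were below 0, and above 0 for flp-4, flp-6 and flp-7. These values share 6 libraries and are not independent of each other.

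The intervals give the size of change that the 6 libraries allow. All 30 members had a 95% interval inside -1 to 1 on the log2 scale, against 81.2% of all tested genes (30 of 30 against 84.4% in the blocked fit), and for 22 of the 30 the interval also stayed inside a 1.5-fold change. The interval reached past 1.5-fold for flp-3, flp-4, flp-10, flp-14, flp-20, flp-21, flp-25 and flp-27. The lowest bound was -0.83 (flp-20) and the highest 0.63 (flp-4). The 3 diquat libraries all lay below the 3 control libraries for 3 genes (flp-9, flp-14 and flp-27), against 6.68% of tested genes, and all above for 0, against 4.07%.

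**Figure D2:**
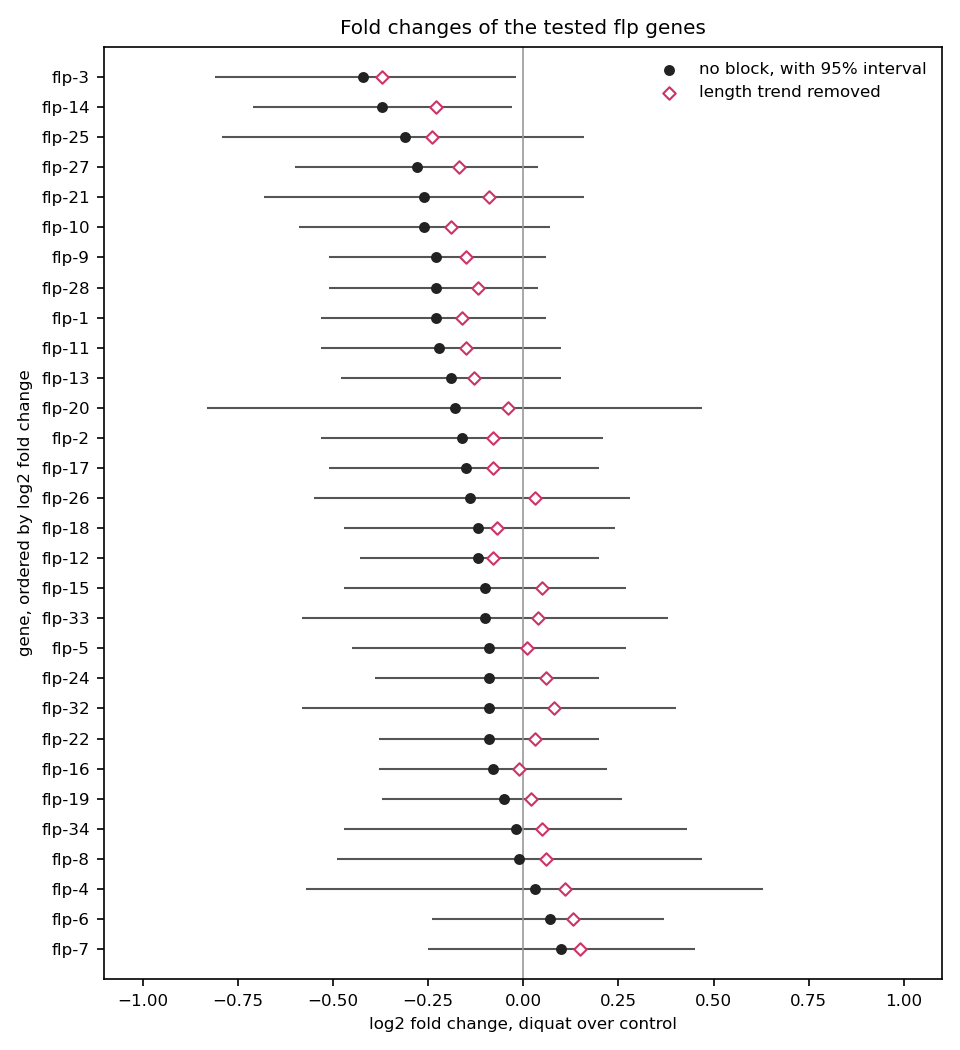
Log2 fold change of each tested flp gene, diquat over control (horizontal axis; genes ordered by value). Filled points with bars give the edgeR value and its 95% interval, and open diamonds the value with each library's length trend removed. Only the intervals of flp-3 and flp-14 leave out 0, by 0.02 and 0.03 before any adjustment for multiple tests, and the diamonds sit to the right of the points.

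flp-3 and flp-14 had the lowest log2 fold changes. flp-3, whose peptides are known for a part in the male response to an ascaroside pheromone, was at 14.4, 13.2 and 10.8 CPM in controls 1 to 3 and 11.7, 9.03 and 7.95 CPM in diquat 1 to 3. Diquat 3 and diquat 2 were the lowest libraries, and diquat 1 lay above control 3, so the groups overlapped. Its mean was 12.8 ± 1.85 CPM in control and 9.58 ± 1.95 CPM with diquat (SD over 3 libraries each; log2 fold change -0.42 with 95% interval -0.81 to -0.02, edgeR's adjusted p of 0.750). flp-14 (chromosome III, 12910510 to 12914783, forward strand) was at 20.9, 24.8 and 18.8 CPM in controls 1 to 3 and 17.3, 18.4 and 14.2 CPM in diquat 1 to 3. Every diquat library was below every control library, with control 2 the highest of the 6. Its mean was 21.5 ± 3.04 CPM in control and 16.7 ± 2.17 CPM with diquat (log2 fold change -0.37 with 95% interval -0.71 to -0.03, edgeR's adjusted p of 0.723).

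With the replicate number as a block in the edgeR fit, these 2 genes fell and no flp gene rose. The blocked adjusted p was 0.0285 for flp-3 (log2 fold change -0.42) and 0.0186 for flp-14 (log2 fold change -0.37). Of all tested genes the blocked fit called 4.0% lower and 4.51% higher. Neither call held when a pair was left out. Such fits, here and below, rest on fewer libraries, so a lost call may also reflect lower power. Over all tested genes the lower calls went from 530 to 181, 333 and 482 without pairs 1, 2 and 3. The log2 fold change of flp-3 was -0.49, -0.35 and -0.41 in these fits. For flp-3 the blocked edgeR adjusted p was 0.142 without pair 1, 0.191 without pair 2 and 0.0975 without pair 3, and for flp-14 it was 0.0943, 0.146 and 0.0872. The next lowest blocked edgeR adjusted p were 0.0814 for flp-28 and 0.0823 for flp-1. The same-numbered diquat library was the lower of its pair in all 3 pairs for 13 of the 30 genes, against 19.6% of all tested genes. In no flp gene was it the higher in all 3, and the share of all tested genes for that was not computed.

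The flp genes tied to the antioxidant response gave no call. flp-1 (chromosome IV, 9144705 to 9146128, forward strand), which is expressed mainly in AVK interneurons and also shapes locomotion, was at 42.4, 37 and 34.4 CPM in controls 1 to 3 and 33.2, 35.2 and 28.3 CPM in diquat 1 to 3. Control 1 was highest and diquat 3 lowest, and diquat 2 lay above control 3 (log2 fold change -0.23 with 95% interval -0.53 to 0.06, edgeR's adjusted p of 0.819). flp-2, which is also linked to arousal through its receptor FRPR-18, was at 9.58, 11.4 and 9.60 CPM in controls 1 to 3 and 10.6, 9.12 and 7.72 CPM in diquat 1 to 3. Diquat 1 was above controls 1 and 3, and the groups overlapped (log2 fold change -0.16 with 95% interval -0.53 to 0.21, edgeR's adjusted p of 0.855). Receptor genes had low counts. npr-4, which encodes a receptor for FLP-1 in the intestine, had 22, 11 and 24 counts in controls 1 to 3 and 10, 19 and 32 in diquat 1 to 3 (log2 fold change 0.09 with 95% interval -0.87 to 1.05, edgeR's adjusted p of 0.975). For frpr-18 there were 20, 24 and 42 counts in controls 1 to 3 and 11, 30 and 25 in diquat 1 to 3 (log2 fold change -0.38 with 95% interval -1.29 to 0.54, edgeR's adjusted p of 0.865).

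Among the genes for sleep-promoting peptides, flp-11 acts in the RIS neuron and flp-13 and flp-24 in the ALA neuron. flp-11 was at 31.6, 30.8 and 27.9 CPM in controls 1 to 3 and 28.6, 27.8 and 21.4 CPM in diquat 1 to 3. Controls 1 and 2 were highest, diquat 3 was lowest and the other 3 libraries lay close together (log2 fold change -0.22 with 95% interval -0.53 to 0.10, edgeR's adjusted p of 0.819). The level of flp-13 (chromosome IV, 7696932 to 7698420, reverse strand) was 27.4, 25.9 and 27.2 CPM in control and 26.5, 21.4 and 22.7 CPM with diquat. Diquat 2 and diquat 3 were below all controls and diquat 1 was among them (log2 fold change -0.19 with 95% interval -0.48 to 0.10, edgeR's adjusted p of 0.820). For flp-24 the values were 24.6, 23.9 and 20.8 CPM in control and 19.9, 23 and 22 CPM with diquat, with both groups over the same range (log2 fold change -0.09 with 95% interval -0.39 to 0.20, edgeR's adjusted p of 0.901). dmsr-1, which encodes a receptor for FLP-13, had a log2 fold change of 0.36 at 54 to 98 counts per library (edgeR's adjusted p of 0.819).

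Genes for peptides that act on feeding, fat and social behaviour also overlapped between the groups. flp-7, whose tachykinin-like peptides from ASI neurons promote fat loss through NPR-22, had the highest log2 fold change of the 30. It was at 9.26, 10.1 and 10.2 CPM in controls 1 to 3 and 11.8, 8.94 and 10.9 CPM in diquat 1 to 3, with diquat 2 the lowest and diquat 1 the highest of the 6 (log2 fold change 0.10 with 95% interval -0.25 to 0.45, edgeR's adjusted p of 0.913). flp-18, which acts through NPR-4 and NPR-5 on foraging and fat stores, was at 16.6, 16.2 and 13.8 CPM in controls 1 to 3 and 12.5, 17.3 and 13.3 CPM in diquat 1 to 3. Diquat 2 was the highest and diquat 1 the lowest library (log2 fold change -0.12 with 95% interval -0.47 to 0.24, edgeR's adjusted p of 0.899). The level of flp-21, a ligand gene of the aggregation receptor NPR-1, was 7.06, 6.20 and 4.96 CPM in control and 5.58, 4.61 and 5.04 CPM with diquat, with control 3 just below diquat 3 and diquat 1 (log2 fold change -0.26 with 95% interval -0.68 to 0.16, edgeR's adjusted p of 0.821). npr-5 had a log2 fold change of -0.30 and npr-22 of -0.40 (edgeR's adjusted p of 0.821 and 0.834). npr-1 was below the count filter, with 4, 2 and 3 counts in controls 1 to 3 and 2, 3 and 8 in diquat 1 to 3.

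flp-10 and flp-17 encode peptides that slow egg laying through the receptor EGL-6, and FLP-17 comes from the carbon dioxide-sensing BAG neurons. The level of flp-10 was 17.6, 19.4 and 14.8 CPM in control and 15.2, 15.1 and 13 CPM with diquat, with controls 1 and 2 highest, control 3 just below diquat 1 and diquat 2, and diquat 3 lowest (log2 fold change -0.26 with 95% interval -0.59 to 0.07, edgeR's adjusted p of 0.819). For flp-17 it was 18.1, 17.1 and 12.7 CPM in control and 15.6, 13.7 and 13.7 CPM with diquat, and control 3 was the lowest of the 6 (log2 fold change -0.15 with 95% interval -0.51 to 0.20, edgeR's adjusted p of 0.855). egl-6 had a log2 fold change of 0.19 (edgeR's adjusted p of 0.852). Genes with a known part in the turning of males during mating, flp-8, flp-12 and flp-20, had log2 fold changes of -0.01, -0.12 and -0.18 (edgeR's adjusted p of 0.992, 0.880 and 0.914). The deposited annotation also ties flp-10, at -0.26, to this turning. flp-34, whose peptides act through NPR-11 in olfactory learning, was at 4.91, 4.06 and 4.35 CPM in control and 4.11, 5.34 and 3.76 CPM with diquat (log2 fold change -0.02 with 95% interval -0.47 to 0.43, edgeR's adjusted p of 0.991). Its receptor gene npr-11 had 28, 15 and 21 counts in controls 1 to 3 and 25, 39 and 42 in diquat 1 to 3 (log2 fold change 0.73 and edgeR's adjusted p of 0.819).

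flp-28 and flp-22, among the most abundant by FPKM, are shown for their abundance. flp-28 was at 45.2, 42.6 and 37.1 CPM in controls 1 to 3 and 34.3, 39.1 and 32.9 CPM in diquat 1 to 3. Diquat 2 lay above control 3, and otherwise the controls were higher (log2 fold change -0.23 with 95% interval -0.51 to 0.04, edgeR's adjusted p of 0.819). flp-22 was at 23.2, 25.5 and 25.6 CPM in controls 1 to 3 and 25.7, 22.2 and 21.8 CPM in diquat 1 to 3, and diquat 1 was the highest of all 6 (log2 fold change -0.09 with 95% interval -0.38 to 0.20, edgeR's adjusted p of 0.901). The 2 other genes whose diquat libraries all lay below the controls were flp-9 and flp-27. The level of flp-9, which the deposited annotation ties to locomotory behavior, was 27.5, 24.1 and 24.6 CPM in control and 23.1, 21.2 and 20.8 CPM with diquat (log2 fold change -0.23 with 95% interval -0.51 to 0.06, edgeR's adjusted p of 0.819). For flp-27 it was 19.6, 18 and 15.9 CPM in control and 14.7, 15.9 and 13.5 CPM with diquat (log2 fold change -0.28 with 95% interval -0.60 to 0.04, edgeR's adjusted p of 0.819). The gap between the groups was narrow for flp-27, whose control 3 and diquat 2 were both 15.9 CPM after rounding. The 10 tested genes that remain (flp-4, flp-5, flp-6, flp-15, flp-16, flp-19, flp-25, flp-26, flp-32 and flp-33) had log2 fold changes from -0.31 (flp-25, 95% interval -0.79 to 0.16) to 0.07 (flp-6, 95% interval -0.24 to 0.37), with edgeR's adjusted p of 0.820 to 0.987.

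Some of these remaining genes have known roles. flp-6, which acts downstream of thermosensory neurons on lifespan, was at 13.5, 14.8 and 13.6 CPM in control and 13.9, 14.4 and 15.7 CPM with diquat, and diquat 3 was the highest of the 6. flp-15, which encodes a ligand of NPR-3, was at 13.2, 15.4 and 11.3 CPM in control and 11.9, 14.4 and 10.8 CPM with diquat, with control 2 and diquat 2 the highest. npr-3 was below the count filter, with 5, 7 and 7 counts in controls 1 to 3 and 8, 4 and 11 in diquat 1 to 3. The lowest tested gene, flp-25, was at 4.06, 3.69 and 3.78 CPM in control and 2.60, 3.83 and 2.87 CPM with diquat, and diquat 2 lay above controls 2 and 3. The level of flp-8 was 4.87, 5.38 and 3.50 CPM in control and 4.53, 5.29 and 3.80 CPM with diquat, with diquat 2 and control 2 highest, and the level of flp-33 was 3.25, 4.88 and 3.62 CPM in control and 4.11, 3.28 and 3.53 CPM with diquat, with control 1 lowest and control 2 highest. By position, 12 of 13 on the X and 15 of 17 tested on the autosomes had log2 fold changes below 0, with medians of -0.12 and -0.15. With the length trend removed these became 7 of 13 and 10 of 17, with medians of -0.04 and -0.08, and without control 1 they were 8 of 13 and 14 of 17, with medians of -0.06 and -0.14. Across the 30 genes mean FPKM and log2 fold change had a Spearman correlation of -0.245. No test was made of these last values.

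Flp levels differed between the 3 same-numbered pairs as well as within them. The median deviation of the 30 genes from their own mean over the 6 libraries was 0.16, 0.14 and -0.05 on the log2 scale in controls 1 to 3 and -0.01, 0.01 and -0.21 in diquat 1 to 3. Control 3 was thus below diquat 1 and diquat 2, and control 1 and control 2 were the highest. Within each same-numbered pair the diquat library was the lower. Library 3 was the lowest of its group in both groups for 17 of the 30 genes. The share of all tested genes with that order was not computed, so the count cannot be read as particular to flp genes. The summed level of the 31 genes was 492, 484 and 423 CPM in controls 1 to 3 and 430.4, 435 and 382 CPM in diquat 1 to 3. Divided by the summed level of the 15 pan-neuronal genes it was 0.912, 0.890 and 0.792 in control and 0.833, 0.809 and 0.740 with diquat, so control 3 again stood below diquat 1 and diquat 2. The ratio sets short genes against long ones, with median exon lengths of 644 and 2567 nucleotides, and was not corrected for the length trend described later. With that trend removed the median log2 fold change was -0.06 for the flp genes and -0.04 for the pan-neuronal genes. The part of length in the ratio was not tested. For the sum and the ratio, too, the diquat library was the lower in 3 of 3 pairs. Without TMM scaling the order differed: the summed FPKM of the flp genes was 825, 750.0 and 736 in controls 1 to 3 and 733, 683 and 698 in diquat 1 to 3, and all 3 controls lay above all 3 diquat libraries, control 3 by a small margin. The part of these library differences in the result was not tested.

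Spread between libraries was largest for flp-4 in control, with a coefficient of variation of 39.2%, and for flp-20 with diquat, with 33.8%. The median coefficient over the 30 genes was 10.4% in control and 11.1% with diquat. flp-20, expressed in touch receptor neurons, was at 5.64, 6.02 and 3.09 CPM in controls 1 to 3 and 4.78, 5.56 and 2.72 CPM in diquat 1 to 3, so library 3 was the lowest in both groups. flp-4 was at 7.96, 5.61 and 3.50 CPM in controls 1 to 3 and 5.37, 7.34 and 4.77 CPM in diquat 1 to 3, with control 3 lowest and control 1 highest of all 6. Its log2 fold change was 0.03, and -0.21 without control 3 and 0.36 without control 1. Without diquat 3 the median over the 30 was -0.08, without control 2 it was -0.07 and without control 3 it was -0.20. Over the 6 libraries left out in turn, 22 to 28 of the 30 were below 0.

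**Figure D3:**
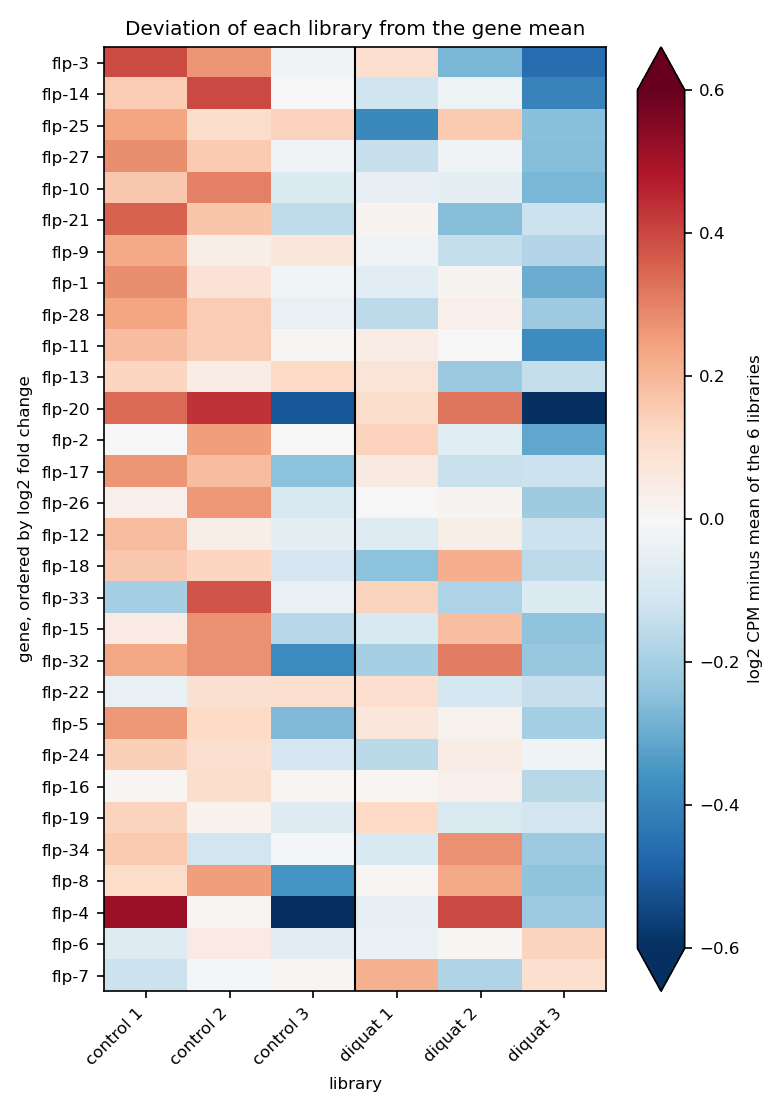
Deviation of each library from the gene's mean over the 6 libraries, in log2 CPM, for the 30 tested flp genes (rows, ordered by log2 fold change) and the 6 libraries (columns, controls left of the line). Red is above and blue below the mean, and deviations beyond the scale have its end colors. Controls 1 and 2 are mostly red and diquat 3 mostly blue, and flp-4, flp-8, flp-20 and flp-32 are blue in control 3.

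Fold changes in these libraries varied with transcript length, and flp transcripts are short. Exons of the 30 tested flp genes had a median length of 644 nucleotides, against 1416 for all tested genes. All 30 fell in the 3 shortest of 10 length classes of equal size, with 12, 15 and 3 members. In these classes the median log2 fold change was -0.12, -0.06 and -0.04 over all genes and -0.12, -0.15 and -0.12 over the flp members. Of the 30, 18 lay below the median of their own class. With each library's length trend removed, the median over the 30 was -0.06 and 17 were below 0, where 49.0% of all tested genes were below 0. That fit called 0 members lower and 0 higher, against 0.694% and 0.00755% of all tested genes. In that fit 10 members turned from below to above 0, among them flp-24, flp-22, flp-32 and flp-15, none of them called. With both the block and the length correction, flp-3 fell (log2 fold change -0.37 and edgeR's adjusted p of 0.0296) and flp-14 lost its blocked call (log2 fold change -0.23 and edgeR's adjusted p of 0.126). The blocked and length-corrected fit called 6.17% of all tested genes lower and 3.42% higher. Within the family, exon length and log2 fold change had a Spearman correlation of 0.119 over 30 genes that share libraries. The annotated length of flp-12, 1013 nucleotides, is longer than the 483 nucleotides that its count and FPKM imply, so its length correction is uncertain. Implied lengths differed from annotated ones for other members too. Among them, flp-4 had 534 against 724 nucleotides and flp-9 had 736 against 633. For flp-14 it was 532 to 553 against 477, and for flp-24 515 to 521 against 446. The length corrections of these members, with the lost call of flp-14, are therefore also uncertain.

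**Figure D4:**
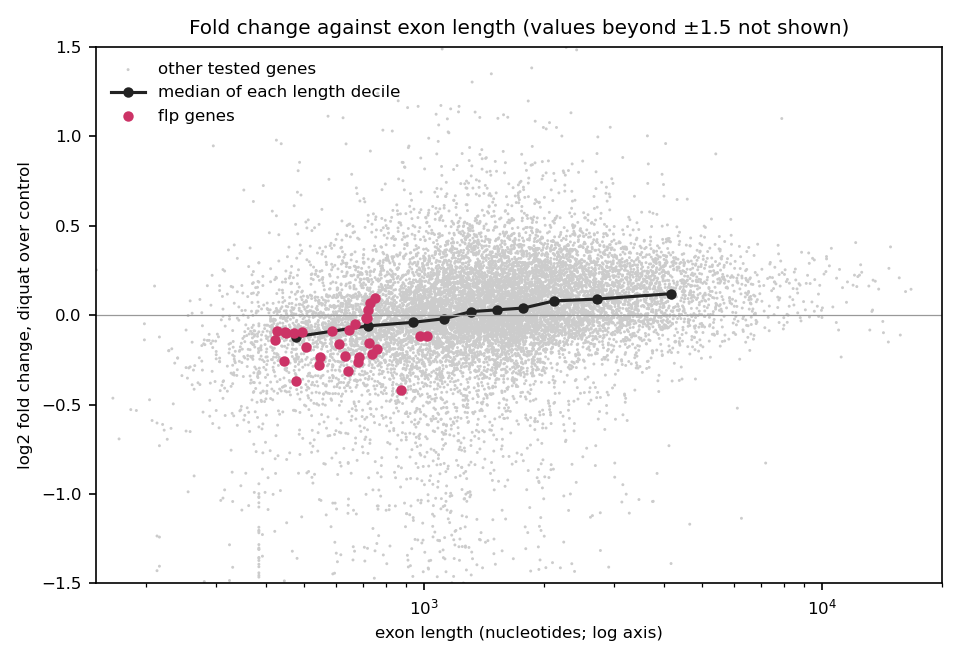
Log2 fold change, diquat over control, against exon length (horizontal log axis, nucleotides) for the tested genes, with flp genes in red and other genes in grey. The black line joins the medians of 10 length classes, from -0.12 in the shortest to 0.12 in the longest. The flp genes sit at the short end, around and below that line.

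The machinery that makes and releases the peptides gave no call without the block. Of 11 precursor processing genes tested, 0 were called in either direction, 8 had a log2 fold change below 0 and the median was -0.12, or -0.04 without control 1 and -0.05 without diquat 3. At an unadjusted p under 0.05 there were 0 lower and 1 higher. egl-3, the main proprotein convertase, was at 154, 165 and 146 CPM in controls 1 to 3 and 144, 148 and 116 CPM in diquat 1 to 3 (log2 fold change -0.19 with 95% interval -0.45 to 0.07, edgeR's adjusted p of 0.819). Diquat 3 was lowest of the 6 and control 2 highest. egl-21, the carboxypeptidase E, was at 199, 198 and 168 CPM in controls 1 to 3 and 187, 174 and 134 CPM in diquat 1 to 3 (log2 fold change -0.19 with 95% interval -0.48 to 0.10, edgeR's adjusted p of 0.820). sbt-1, the chaperone of EGL-3, had a log2 fold change of -0.12 (edgeR's adjusted p of 0.855). With the block, pamn-1, a peptide amidating enzyme gene, rose (log2 fold change 0.39 and edgeR's adjusted p of 0.0201; 0.802 without the block). In the blocked and length-corrected fit egl-3, egl-21, kpc-1 and pghm-1 fell (log2 fold change -0.29, -0.24, -0.27 and -0.21; edgeR's adjusted p of 1.91e-04, 0.00236, 0.0269 and 0.0487), 4 of 11 where 6.17% of all tested genes were called lower, and pamn-1 rose (log2 fold change 0.32 with edgeR's adjusted p of 0.0303). Both pghm-1 and pamn-1 encode amidating enzymes, and kpc-1 encodes another proprotein convertase. The call of pamn-1 with the block alone did not hold without pair 1.

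Of 15 dense-core vesicle genes, 0 were called without the block, 3 had a log2 fold change below 0 and the median was 0.26, at a median exon length of 2520 nucleotides. The median was 0.08 without diquat 3, 0.42 without control 3 and 0.17 with the length trend removed. At an unadjusted p under 0.05 there were 0 lower and 1 higher. With the block, 4 of 15 rose, against 4.51% of all tested genes: pkc-1, a protein kinase C that promotes neuropeptide release, unc-104, the kinesin that carries vesicle precursors along axons, and vps-51 and vps-53, which encode tethering complex subunits. Their blocked log2 fold changes were 0.37, 0.45, 0.32 and 0.38 (edgeR's adjusted p of 0.00169, 0.0366, 0.0292 and 0.0324). None of these 4 calls held without pair 1, and at most 1 held without pair 3. With the length trend also removed pkc-1 and vps-53 kept the call (edgeR's adjusted p of 0.00565 and 0.0417), unc-104 and vps-51 lost it (edgeR's adjusted p of 0.105 and 0.0657), and ida-1, a dense-core vesicle membrane protein gene, fell (log2 fold change -0.22 and edgeR's adjusted p of 0.0187). unc-31, needed for dense-core vesicle release, had 69, 83 and 96 counts in controls 1 to 3 and 106, 66 and 99 in diquat 1 to 3 (log2 fold change 0.11 and edgeR's adjusted p of 0.932).

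Receptor transcripts were scarce. The 35 npr genes of the table summed to 42.5 to 47.7 CPM per library, the 19 frpr genes to 16.3 to 18.5 and the 16 dmsr genes to 19.6 to 21.8. The count filter passed 29 npr, 9 frpr and 8 dmsr genes, and 0 were called with or without the block. At an unadjusted p under 0.05 there were 1 npr and 1 dmsr gene lower and 0 higher. Median log2 fold changes were 0.06, 0.04 and -0.15. Of 15 receptors chosen for a known flp ligand, 11 were tested, and npr-1, npr-3, frpr-3 and frpr-4 were too low. Neprilysins, a family of membrane peptidases with members that degrade neuropeptides, had 0 of 12 tested genes called and a median of -0.01. With the block nep-17 fell (log2 fold change -0.21 and edgeR's adjusted p of 0.0153), and it was at 1037, 1356 and 1115 CPM in controls 1 to 3 and 989, 1218 and 844 CPM in diquat 1 to 3. The blocked call of nep-17 did not hold when any pair was left out.

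**Figure D5:**
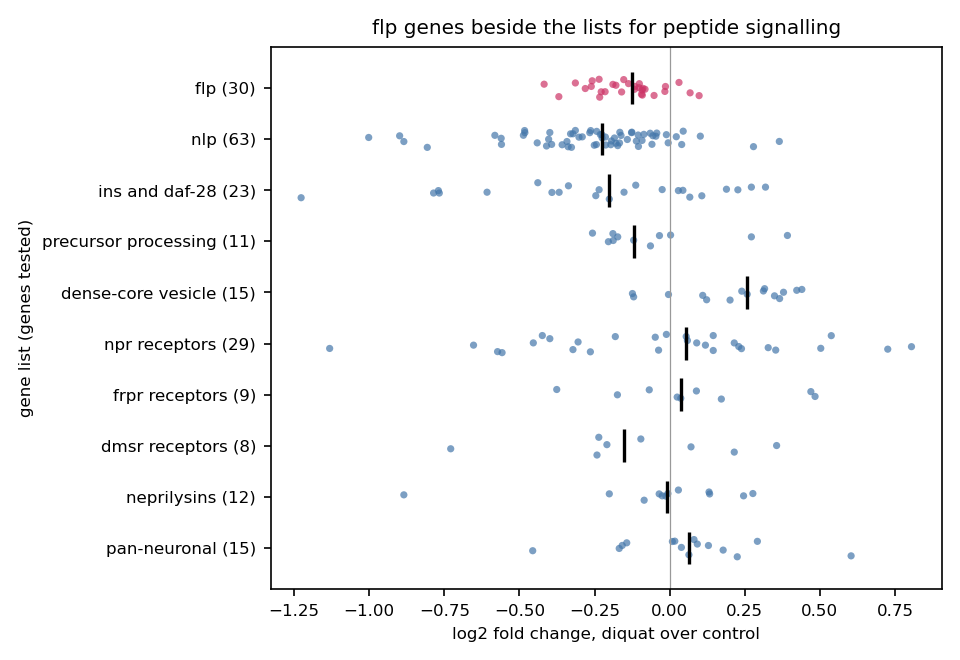
Log2 fold change, diquat over control, of each tested gene in 10 lists (rows, number of genes tested in brackets). Points are genes, spread vertically for display, and black bars list medians. The flp median is -0.13, between those of the nlp genes (-0.23) and the pan-neuronal genes (0.06).

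The flp genes lay beside the other peptide families. Of 63 tested nlp genes, which encode neuropeptides of other sequence classes and some antimicrobial peptides, 0 were called lower or higher without the block. At an unadjusted p under 0.05 there were 9 lower and 0 higher, against 4.68% and 1.54% of all tested genes. Their median log2 fold change was -0.23, 57 were below 0 and the diquat libraries lay below all controls for 10, against 6.68% of all tested genes. With the block 6 of 63 fell, against 4.0% of all tested genes: nlp-2, nlp-24, nlp-27, nlp-31, nlp-34 and nlp-77. The lowest of these 6 was nlp-34 at 5.85, 6.57 and 4.35 CPM in control and 3.27, 3.19 and 2.52 CPM with diquat, with no overlap (blocked log2 fold change -0.89 and edgeR's adjusted p of 0.00294; 0.105 without the block). Over all 63, nlp-30 had the lowest log2 fold change without the block, at -1.002, and was not among these 6. nlp-31, a gene of the antimicrobial class expressed in the epidermis, was at 15.6, 12.3 and 9.07 CPM in control and 7.30, 7.84 and 6.01 CPM with diquat (blocked log2 fold change -0.79 and edgeR's adjusted p of 2.43e-04). With the length trend removed the nlp median was -0.12, at a median exon length of 596 nucleotides. The 23 tested insulin-like peptide genes had 0 called with or without the block, 1 lower and 0 higher at an unadjusted p under 0.05, and a median of -0.20. That median was -0.08 without control 1 or control 2, -0.10 without diquat 3 and -0.06 with the length trend removed. With the block and length correction ins-19 rose (log2 fold change 0.48 with edgeR's adjusted p of 0.0236), 1 of 23 where 3.42% of all tested genes were called higher. Whether the flp genes differ from these families was not tested.

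The 2 units of the deposited table disagreed for flp-34. For flp-8 the units did not disagree, as count and FPKM implied 674 nucleotides in every library. Its log2 fold change still differed in sign, at 0.03 in the authors' deposited table and -0.01 in edgeR after TMM scaling. For flp-23, too low to test here, the authors' log2 fold change was 4.97. In the authors' deposited table flp-34 had a log2 fold change of -0.20 from mean FPKM, while its counts gave -0.02. The length that count and FPKM imply for flp-34, which has 3 annotated transcripts, was 545, 493 and 585 nucleotides in controls 1 to 3 and 628 in each diquat library. It varied 1.27 times between libraries, and by less than 1.05 times for the 29 other members for which it could be compared. flp-34 FPKM values were 9.03, 7.55 and 7.76 in control and 6.67, 7.93 and 6.55 with diquat.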

How the data were processed

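Per the labels' protocols, RNA was extracted with Trizol, selected with oligo(dT) beads and made into libraries with an NEBNext Ultra kit. RSEM, HISAT2, fastp (0.18.0), StringTie (1.3.1) and the WBcel235 build are listed in the submitters' processing notes, without their roles. The authors deposited an estimated count per gene and library, rounded to whole numbers (94 values are 0 beside an FPKM above 0). They also deposited FPKM, normalized for length and library total, and their own log2 fold change, p-value and FDR, per the file headers; how these were tested is not stated there.

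From the counts, genes were tested with edgeR 4.0.16 (R 4.3.3; quasi-likelihood F-test, TMM scaling, default filter, robust, group as the only term) over all 6 libraries, with Benjamini-Hochberg adjustment over 13252 genes and a threshold of 0.05. Standard errors and 95% intervals were derived from the fold changes and F statistics; log2 CPM used a prior count of 2. DESeq2 1.42.0 and limma-voom (limma 3.58.1) were alternatives, as were RLE scaling, no filter, each library left out, a replicate block, and a length correction (a lowess trend of log2 level on exon length removed per library). The fit was tested on simulated counts drawn independently for each library, without replicate pairs or a length trend. That test therefore cannot show how the fits act where these are present. Libraries of a group all differed beyond sampling noise (chi-square per degree of freedom 15.5 or more).

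The labels number the libraries 1 to 3 in both groups. They do not state that same-numbered libraries are pairs. Deviations from group means correlated at 0.155, 0.200 and 0.459 between same-numbered libraries, all above 0.1. On that ground a blocked fit is given where it changes a call. For control 1 the correlation was higher with diquat 2 (0.209), so the pairing of libraries 1 and 2 rests on the shared numbers alone. Members were taken by symbol and all are accounted for. Given in full were members past the threshold with or without the block, the 5 highest in CPM and 7 with known roles (flp-1, flp-2, flp-7, flp-11, flp-13, flp-18 and flp-21); flp-9, flp-10, flp-17, flp-20, flp-24, flp-27 and flp-34 were added after their values were seen. From other lists, members past the threshold with or without the block and known receptors were named, and others after their values were seen. Members and lists were chosen with earlier results of these data known.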

Additional observations from a re-analysis of the deposited data

How the results depend on the processing

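No flp gene was called under DESeq2, limma-voom, the authors' deposited table, RLE scaling, no low-count filter, length correction, any single library left out, or the block with a pair left out; 27 of 30 members stayed below 0 under the first 2, RLE scaling and no filter. The replicate block called 2 flp genes lower, and 1 with the length trend also removed. A further set joined the processing, vesicle, neprilysin, npr, frpr and dmsr genes and egl-6, with 85 tested and 0 called in either direction. In that set the block gave 1 lower and 5 higher, and block and length correction 6 and 3. The block without pair 1, 2 or 3 gave 0, 4 and 1 higher there, and 0 lower each time. Over all genes (121 lower, 0 higher) the block gave 530 and 598, block and length correction 818 and 453, and the block without pair 1, 2 or 3 gave 181 and 15, 333 and 329, and 482 and 436. Single libraries left out gave 27 to 116 lower (71 without control 1, 38 without control 2, 27 without diquat 1) and 0 to 1 higher; 1 gene was higher with the length trend removed and 2 with DESeq2, the authors' deposited table or no filter. The cause of these differences was not tested.

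Members that changed sign, with their log2 fold change, were never called. With the length trend removed these were flp-5, flp-8, flp-15, flp-19, flp-22, flp-24, flp-26, flp-32, flp-33 and flp-34 (0.01, 0.06, 0.05, 0.02, 0.03, 0.06, 0.03, 0.08, 0.04 and 0.05), and with the block as well flp-5, flp-8, flp-15, flp-19, flp-22, flp-24, flp-26, flp-32, flp-33 and flp-34 (0.01, 0.06, 0.05, 0.02, 0.04, 0.06, 0.03, 0.08, 0.05 and 0.04). In the authors' deposited table it was flp-8 (0.03). With the block and without pair 1 they were flp-7, flp-8, flp-18, flp-24, flp-32 and flp-34 (-0.04, 0.04, 0.02, 0.01, 0.09 and 0.09), without pair 2 flp-4, flp-8 and flp-33 (-0.09, 0.01 and 0.16), and without pair 3 flp-4, flp-6 and flp-34 (-0.10, -0.00071 and 0.06). The ranges over the single libraries left out were flp-4 -0.21 to 0.36, flp-5 -0.21 to 0.03, flp-8 -0.16 to 0.12, flp-15 -0.23 to 0.02, flp-19 -0.12 to 0.01, flp-20 -0.41 to 0.06, flp-32 -0.29 to 0.02, flp-33 -0.22 to 0.09 and flp-34 -0.17 to 0.07. Low counts kept flp-23 (1 count in all) and the receptor genes under the count filter out of the test.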
